A study of Homo sapiens with 12 samples.

Results

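The genes described here are the cytosolic aminoacyl-tRNA synthetases together with the transporters and enzymes that supply amino acids to the cell. They came as a list of 35 named genes, drawn up by role with earlier results of these data known. Among the probe sets that the platform annotation assigns to a gene alone, the brightest on average over the arrays was used for that gene. By this rule 32 of the 35 genes were measured, out of 11963 genes on the array: 16 of 19 synthetases, all 5 transporters, all 6 enzymes of serine, glycine and one-carbon metabolism, and all 5 enzymes of asparagine, proline and transsulfuration. FARSB had no probe set, and MARS1 and QARS1 were represented only by probe sets shared with another gene, so these 3 synthetases were not analysed here.

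RNA was taken from RKO cells, a human colorectal adenocarcinoma line grown in culture, and hybridised to 12 Affymetrix arrays in 4 groups of 3. The groups were control cells, cells given thymoquinone (TQ, a quinone of the plant Nigella sativa) at 20 µM, cells given 5-fluorouracil (5-FU, a pyrimidine analogue that blocks thymidylate synthesis and enters RNA) at 10 µg/mL or about 76.8 µM, and cells given both drugs at once at these concentrations (TQ+5-FU), for 24 h. The labels describe the controls as untreated and the methods give them the solvent DMSO, so an effect of the solvent cannot be told apart from that of a drug if the labels hold. The labels do not tie the arrays to separate cultures, and p-values measure the spread between arrays, which may be technical.

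Each synthetase joins an amino acid to its tRNA, and the ribosome draws on the charged tRNAs. When a tRNA stays uncharged, the kinase GCN2 phosphorylates eIF2α, translation slows, and the transcription factor ATF4 is made from its specially arranged mRNA. ATF4 pairs with C/EBP proteins on a composite DNA element and is known to raise transcription of many synthetases, amino acid transporters and biosynthetic enzymes, asparagine synthetase (ASNS) among them. These genes are therefore often read together as the amino acid response.

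The RefSeq promoter windows (GRCh38.p14, from 250 bases before to 50 after a start site) were searched on both strands for the composite element spelled TGATGNAA. No other motif was searched. ATF4 is known to act on many such genes through this element. A high share among them was thus partly built into the choice and is not read as a result. Of the 32 measured genes, 26 had a window and 10 of these held the element, or 38.5%, against 328 of 9563 measured genes of the array with a window, or 3.43%. Counted by window, 11 of 42 windows of the listed genes held it (26.2%), the unmeasured MARS1 included. This stands beside 2.45% of windows of measured genes and 3.62% of all 35116 windows. A gene with several windows had more chances of a match. LARS1, VARS1, YARS1, PSPH, SHMT2 and PYCR1 had no entry in the table. The element begins at position -68 from the start site of ASNS, and the 250 bases upstream of that start (chr7:97872409-97872658, minus strand) are printed because ASNS showed the widest difference between drug groups among the genes that passed the test against 5-FU alone. Capitals mark the element.
ASNS: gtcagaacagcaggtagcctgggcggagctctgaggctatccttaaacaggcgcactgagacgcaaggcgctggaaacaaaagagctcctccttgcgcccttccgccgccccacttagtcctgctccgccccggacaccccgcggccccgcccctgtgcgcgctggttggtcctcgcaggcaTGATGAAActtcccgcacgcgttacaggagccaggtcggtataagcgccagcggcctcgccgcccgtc

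Short stretches around the element in the other 9 measured genes follow, 5′ to 3′ along the gene, since they include 2 synthetases that fell with 5-FU and 4 that did not pass the test. In most of them the element lies on the opposite strand and reads TTGCATCA along the gene.
AARS1 (chr16:70289676-70289703, minus strand): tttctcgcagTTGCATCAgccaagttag
CARS1 (chr11:3057408-3057435, minus strand): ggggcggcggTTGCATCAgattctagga
GARS1 (chr7:30594835-30594862, plus strand): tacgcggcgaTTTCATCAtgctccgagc
IARS1 (chr9:92293693-92293720, minus strand): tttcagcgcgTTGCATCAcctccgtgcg
NARS1 (chr18:57621805-57621832, minus strand): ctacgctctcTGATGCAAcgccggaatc
TARS1 (chr5:33440957-33440984, plus strand): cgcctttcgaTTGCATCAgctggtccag
SLC3A2 (chr11:62881726-62881748, plus strand): gcaggactccTTACATCAgctcc
SLC1A5 (chr19:46784894-46784921, minus strand): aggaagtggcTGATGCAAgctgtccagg
SLC1A4 (chr2:64989382-64989409, plus strand): cggctcccgtTTGCATCAtctccagccg

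Values are log2 signals after RMA, as deposited, with array medians between 6.331 and 6.553. 5-FU replicate 3 stood apart from its replicates (mean r 0.9114 over all probe sets, against 0.9966 to 0.998 for control and TQ arrays), and TQ+5-FU replicate 2 did so to a lesser degree (0.9784). Results that rest on these arrays are therefore given with and without them. Of the epithelial markers, KRT18 read 11.91 to 12.81, EPCAM 8.37 to 9.61 and KRT8 6.25 to 7.77, whereas KRT19, CDH1 and CLDN4 stayed between 3.30 and 4.70 on all arrays. The mean of 6 leukocyte markers lay between 4.25 and 4.92, that of 6 fibroblast markers between 4.91 and 5.62 and that of 3 endothelial markers between 4.37 and 5.21, each highest in 5-FU replicate 3. COL1A1, for example, read 8.08, 8.12 and 8.86 in the 5-FU arrays, beside 8.11 to 8.29 in control. The part of these shifts in the results below was not tested. Arrays of total RNA cannot tell fewer cells of a kind that carries a transcript from less of it per cell.

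A set of these genes was lower with 5-FU than in control, and ASNS, AARS1 and CARS1 among them were higher with TQ+5-FU than with 5-FU alone. All comparisons that include 5-FU alone, the interaction of the drugs given below among them, use the same 5-FU arrays and are not independent. Low readings in those arrays would lower 5-FU against control and raise both TQ+5-FU against 5-FU and the interaction. The words rose and fell are kept for genes whose Benjamini-Hochberg adjusted p was under 0.05 in limma, fitted to all 12 arrays and adjusted over all probe sets. With 5-FU, 7 of the 32 genes fell (21.9%) and none rose, where 2.97% of all measured genes fell and 4.32% rose. The genes that fell were SLC7A5, ASNS, YARS1, AARS1, CARS1, ALDH18A1 and WARS1. The median log2 fold change was -0.59 over the 32 genes and 0.09 over all genes. Limma on the control and 5-FU arrays alone called none of the 32, where it called 0.176% of all genes lower, and the methods' t-test called 3 after adjustment, beside 1.41% of all genes. With TQ+5-FU, only YARS1 fell against control and none rose, against 0.853% lower and 1.78% higher over all genes, and the median was -0.13 beside 0.01. With TQ alone no gene of the group passed, the median was -0.14 beside -0.09, and 0.117% of all genes fell and 0.15% rose.

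**Figure D1:**
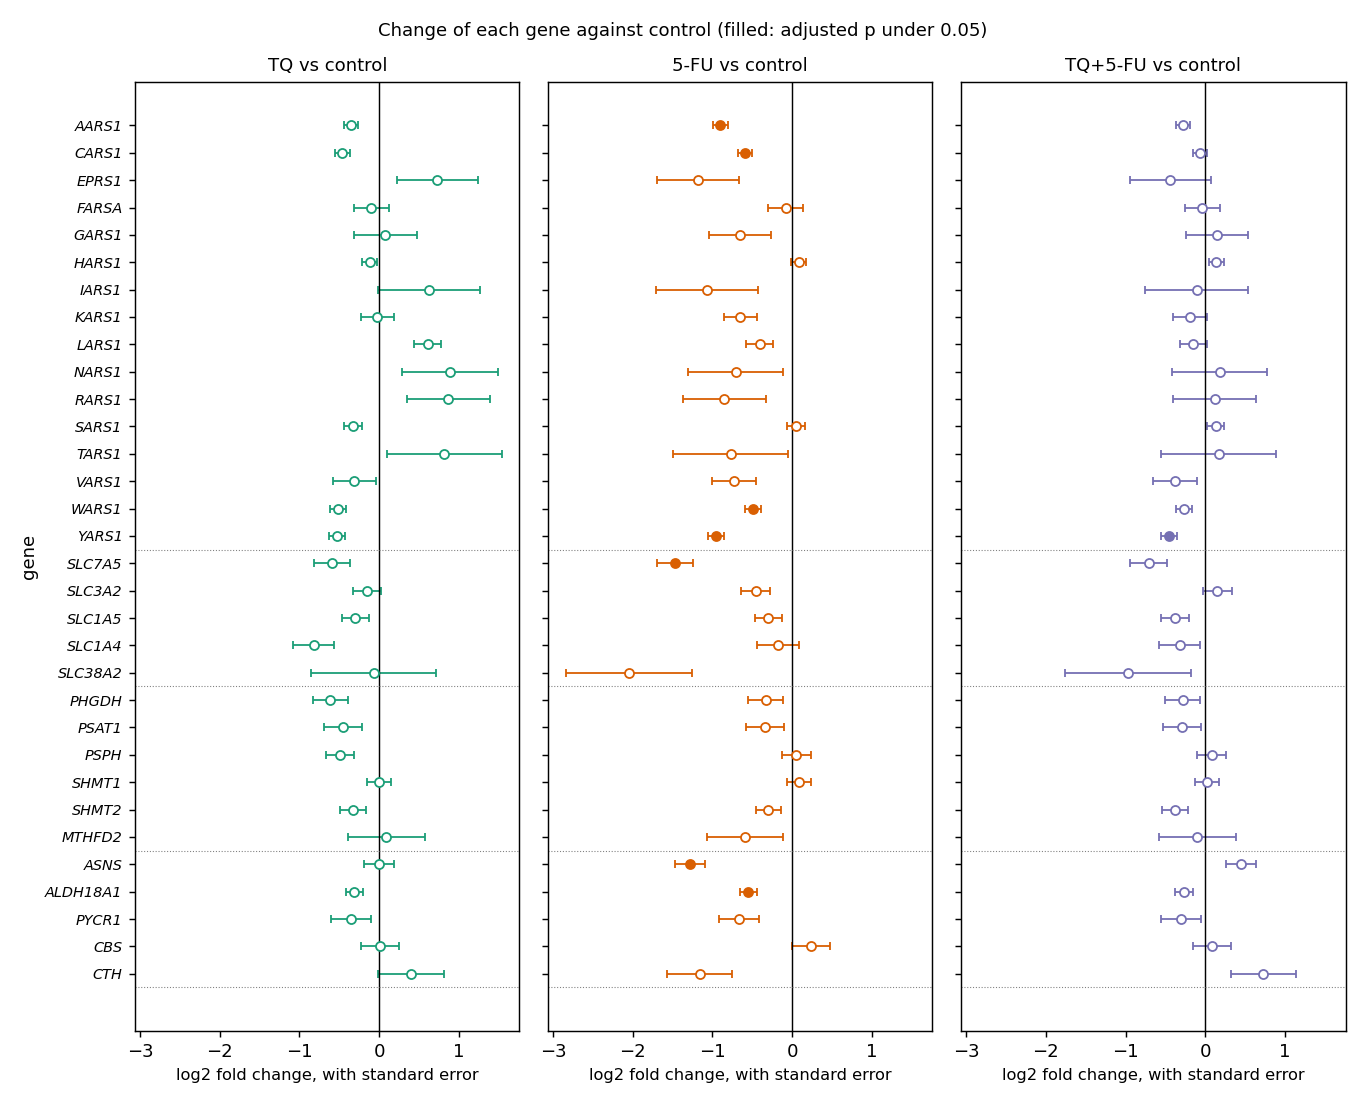
Log2 fold change against control (horizontal axis, points with standard error from limma) for each of the 32 measured genes (vertical axis, dotted lines between the 4 roles) with TQ, 5-FU and TQ+5-FU. Filled points have an adjusted p under 0.05: none with TQ, 7 with 5-FU, all below 0, and YARS1 with TQ+5-FU.

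Among the synthetases 4 of 16 fell with 5-FU. AARS1, which charges alanine, read 11.10, 11.03 and 11.04 in control, 10.66, 10.75 and 10.70 in TQ arrays, 10.12, 10.26 and 10.09 in 5-FU arrays, and 10.74, 10.79 and 10.80 in TQ+5-FU arrays. Every treated array lay under every control array, and the 5-FU arrays lay lowest with no overlap. AARS1 fell 1.87-fold with 5-FU (log2 fold change -0.90 ± 0.09 SE, adjusted p = 0.00036).

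YARS1, the tyrosyl-tRNA synthetase, had the same order of groups. It read 11.73, 11.66 and 11.65 in control, 11.09, 11.18 and 11.17 in TQ arrays, 10.76, 10.83 and 10.56 in 5-FU arrays, and 11.23, 11.21 and 11.22 in TQ+5-FU arrays. It fell 1.94-fold with 5-FU (-0.96 ± 0.10 SE, adjusted p = 0.00038) and 1.37-fold with TQ+5-FU (-0.46 ± 0.10 SE, adjusted p = 0.039). The fall with TQ+5-FU passed only without 5-FU replicate 2 or 5-FU replicate 3 when single arrays were left out, with adjusted p from 0.0025 to 0.2.

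CARS1, which charges cysteine, differed from AARS1 and YARS1 in that TQ+5-FU lay near control. Its values were 11.66, 11.61 and 11.58 in control, 11.08, 11.21 and 11.18 in TQ arrays, 10.99, 11.10 and 11.00 in 5-FU arrays, and 11.51, 11.61 and 11.51 in TQ+5-FU arrays. The TQ and 5-FU arrays overlapped each other and stood clear below both other groups. CARS1 fell 1.5-fold with 5-FU (-0.59 ± 0.09 SE, adjusted p = 0.004), and its other probe set fell by the same amount (-0.59, adjusted p = 0.013).

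WARS1, the tryptophanyl-tRNA synthetase, read 11.10, 11.00 and 11.10 in control, 10.55, 10.61 and 10.51 in TQ arrays, 10.51, 10.54 and 10.67 in 5-FU arrays, and 10.68, 10.93 and 10.77 in TQ+5-FU arrays. All treated arrays lay below control, and TQ and 5-FU overlapped. It fell 1.41-fold with 5-FU (-0.49 ± 0.10 SE, adjusted p = 0.017), also on its other probe set (-0.43, adjusted p = 0.018). The call was lost without any 1 of the control arrays or without 5-FU replicate 2, with a highest adjusted p of 0.085.

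**Figure D2:**
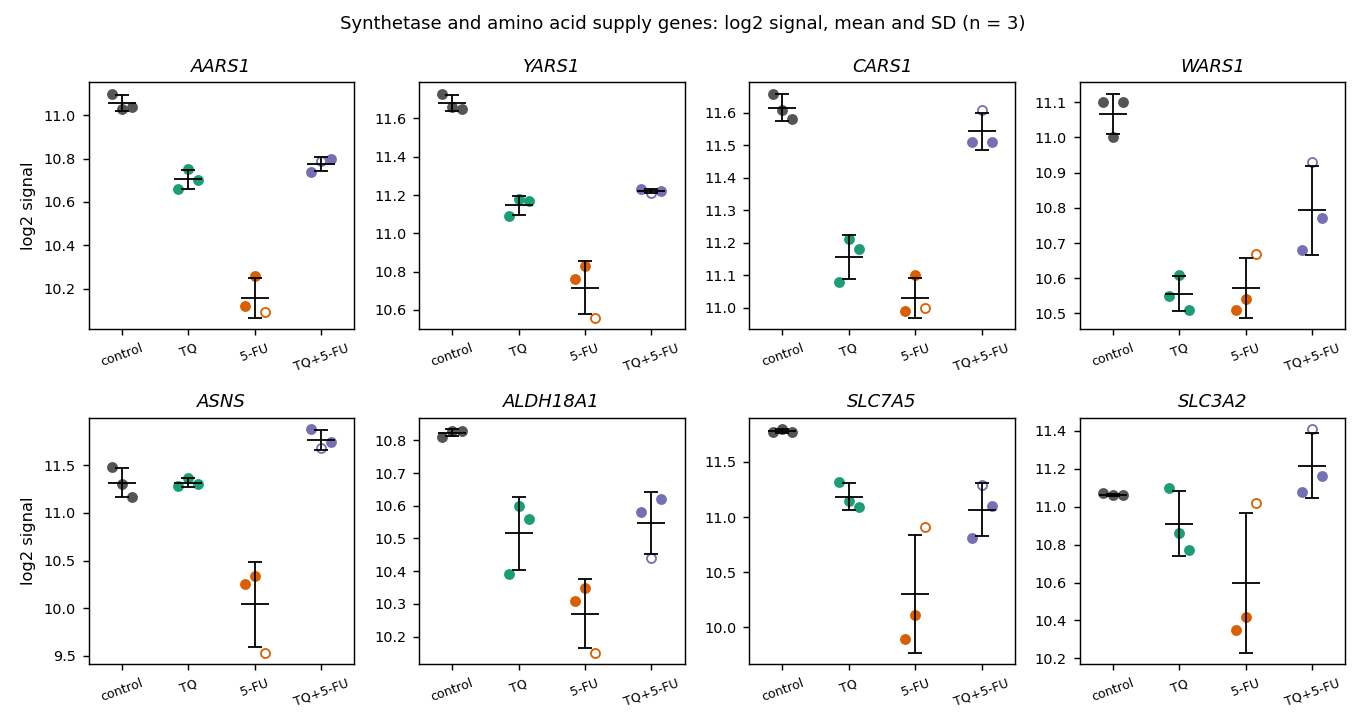
Log2 signal (vertical axis, a scale of its own in each panel) of 8 genes in the 3 arrays of each group (horizontal axis), with mean and SD as black bars. Open circles are 5-FU replicate 3 and TQ+5-FU replicate 2. AARS1, YARS1 and ASNS are lowest in the 5-FU arrays, CARS1 is low in both the TQ and the 5-FU arrays, and ASNS with TQ+5-FU lies above all control arrays.

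The other 12 measured synthetases did not pass with 5-FU. Their log2 fold changes ran from -1.18 for EPRS1 (glutamate and proline) to 0.08 for HARS1 (histidine), and several of them rested on 5-FU replicate 3. Without it and TQ+5-FU replicate 2, IARS1 moved from -1.07 to -0.13, RARS1 from -0.85 to -0.04 and GARS1 from -0.65 to -0.05. TARS1 (threonine) read 10.19 and 10.13 in 5-FU replicates 1 and 2 and 6.97 in replicate 3, beside 10.18, 9.87 and 9.57 in control. IARS1 (isoleucine) read 11.17, 11.10 and 8.31, beside 11.42, 11.26 and 11.12 in control. The same array lay below the mean of its replicates by a log2 difference of -2.66 for NARS1, -2.41 for RARS1, -1.82 for EPRS1 and -1.78 for GARS1, yet by only -0.09 for AARS1 and -0.04 for CARS1. KARS1, the lysyl-tRNA synthetase, did not pass on its brightest probe set (-0.65, adjusted p = 0.1) and passed on the other (-0.83, adjusted p = 0.044).

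Over the 32 genes, 9 lay more than 1 log2 unit below their replicates in 5-FU replicate 3 and 2 lay more than 1 above, with a range from -3.38 for SLC38A2 to 1.08 for VARS1. The median difference was -0.14 over these genes and 0.44 over all genes. In TQ+5-FU replicate 2 the range was -1.58 to 0.57, and 4 genes lay more than 1 below, SLC38A2, EPRS1, IARS1 and TARS1, each of which was also far below in 5-FU replicate 3.

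**Figure D3:**
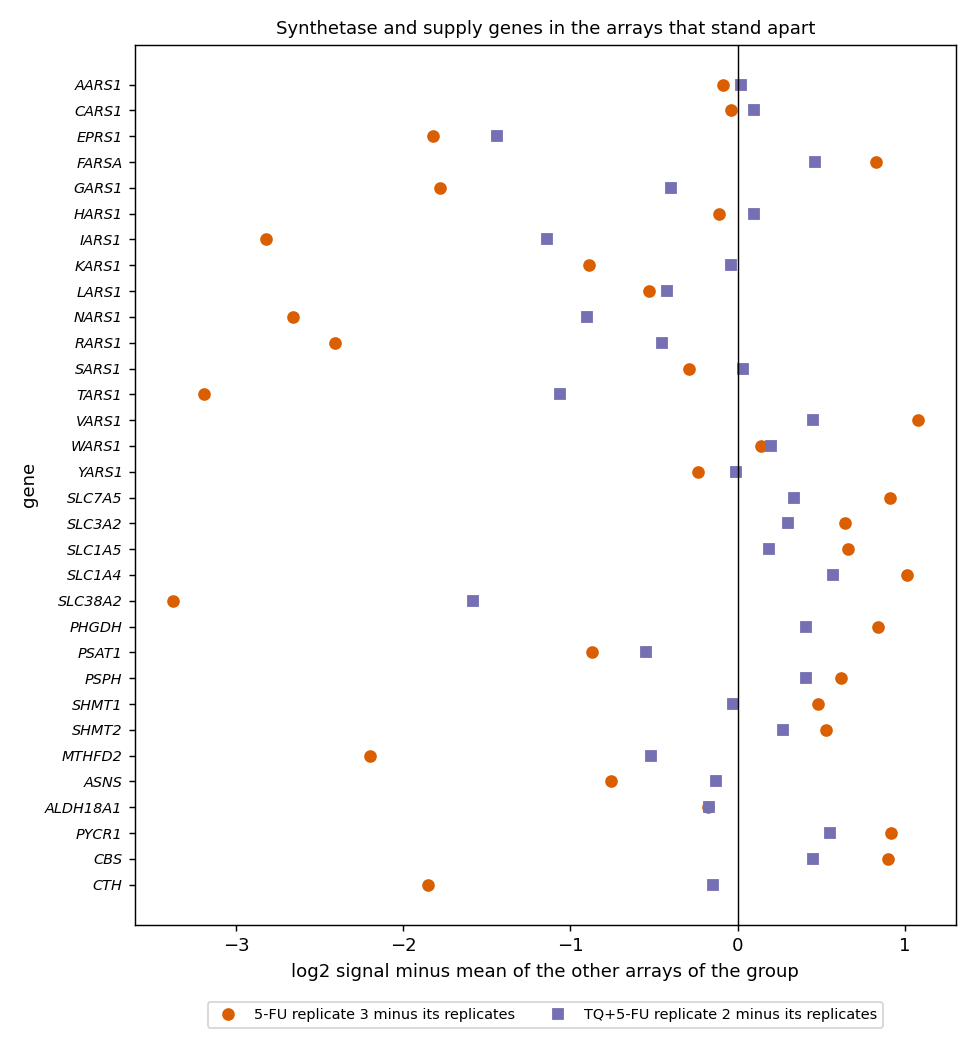
Difference in log2 signal (horizontal axis) between each array that stood apart and the mean of its 2 replicates, for the 32 genes (vertical axis). 5-FU replicate 3 (circles) runs from -3.38 to 1.08 and TQ+5-FU replicate 2 (squares) from -1.58 to 0.57, while AARS1, CARS1 and YARS1 stay within 0.24 of 0 in both.

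Without these 2 arrays more genes passed. With 5-FU, 19 of the 32 genes were then lower and none higher, beside 13.4% lower and 14.9% higher over all genes, and the median was -0.49. Of the 16 synthetases 8 were lower: the 4 named above with VARS1 (-1.09), EPRS1 (-0.57), FARSA (-0.36) and KARS1 (-0.35). VARS1 charges valine. The log2 fold changes of NARS1 and TARS1 with 5-FU turned from -0.71 and -0.77 to 0.18 and 0.29 without the 2 arrays, with adjusted p of 0.44 and 0.26 then.

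The amino acid transporters were led by SLC7A5, the catalytic chain of the exchanger that imports large neutral amino acids such as leucine. It read 11.77, 11.80 and 11.77 in control, 11.32, 11.15 and 11.09 in TQ arrays, 9.89, 10.11 and 10.91 in 5-FU arrays, and 10.81, 11.29 and 11.10 in TQ+5-FU arrays. All treated arrays lay below control, and 5-FU replicate 3 reached into the range of the TQ+5-FU arrays. SLC7A5 fell 2.78-fold with 5-FU (-1.47 ± 0.23 SE, adjusted p = 0.0039), and by -1.78 on the log2 scale without the 2 arrays.

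SLC3A2, the glycoprotein that carries SLC7A5 to the cell surface, read 11.07, 11.06 and 11.06 in control, 11.10, 10.86 and 10.77 in TQ arrays, 10.35, 10.42 and 11.02 in 5-FU arrays, and 11.08, 11.41 and 11.16 in TQ+5-FU arrays. Its 5-FU arrays lay below control, 5-FU replicate 3 by the least. The log2 fold change with 5-FU was -0.46 ± 0.18 SE (adjusted p = 0.19), and -0.68 (adjusted p = 0.00052) without the 2 arrays. The other 3 transporters did not pass with all arrays. SLC1A5, a glutamine carrier, stood at -0.30, and SLC1A4, which carries alanine, serine and cysteine, at -0.18. SLC38A2, a sodium-coupled carrier of small neutral amino acids, stood at -2.05 with an SE of 0.79. All 5 transporters were lower with 5-FU without the 2 arrays, between -0.52 and -1.78, with SLC38A2 at -0.93.

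None of the 6 serine, glycine and one-carbon enzymes passed in any comparison with all arrays. PHGDH, which opens the serine pathway, read 10.60, 10.59 and 10.65 in control, 10.22, 9.97 and 9.83 in TQ arrays, 9.92, 10.08 and 10.84 in 5-FU arrays, and 10.14, 10.60 and 10.26 in TQ+5-FU arrays. Only the TQ arrays all lay below control, with a log2 fold change of -0.61 (adjusted p = 0.38). PSAT1, the next enzyme of the pathway, read 10.88, 10.81 and 10.81 in control, 10.20, 10.44 and 10.53 in TQ arrays, 10.83, 10.74 and 9.91 in 5-FU arrays, and 10.74, 10.17 and 10.71 in TQ+5-FU arrays. Under 5-FU, replicates 1 and 2 lay within 0.1 of control and replicate 3 lay lowest, and the log2 fold change was -0.34 (adjusted p = 0.49), or -0.05 without the 2 arrays.

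PSPH, which ends the serine pathway, stood at 0.05 with 5-FU on its brightest probe set and at -0.63 (adjusted p = 0.059) on its other, so its direction was not settled. SHMT2 and MTHFD2, mitochondrial enzymes that pass serine carbon on to folate, stood at -0.30 and -0.59. MTHFD2 read 12.15, 12.03 and 9.89 in the 5-FU arrays, and it turned to 0.14 (adjusted p = 0.43) without the 2 arrays, while SHMT2 was then at -0.48 (adjusted p = 0.0022). SHMT1 stayed under a log2 signal of 5 on every array, as did CBS of the transsulfuration pathway, and their differences are not read further.

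ASNS, which makes asparagine from aspartate and glutamine, gave the clearest contrast between 5-FU alone and both drugs. It read 11.48, 11.30 and 11.17 in control, 11.28, 11.37 and 11.30 in TQ arrays, 10.25, 10.34 and 9.53 in 5-FU arrays, and 11.88, 11.68 and 11.74 in TQ+5-FU arrays. The 5-FU arrays lay below all others and the TQ+5-FU arrays above all others, while TQ lay within control. ASNS fell 2.43-fold with 5-FU (-1.28 ± 0.19 SE, adjusted p = 0.003). Against control its value with TQ+5-FU was 0.45 ± 0.19 SE (adjusted p = 0.4), and 0.49 (adjusted p = 0.0059) without the 2 arrays.

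ALDH18A1, which turns glutamate into the precursor of proline, read 10.81, 10.83 and 10.83 in control, 10.39, 10.60 and 10.56 in TQ arrays, 10.31, 10.35 and 10.15 in 5-FU arrays, and 10.58, 10.44 and 10.62 in TQ+5-FU arrays. All treated arrays were below control. It fell 1.47-fold with 5-FU (-0.55 ± 0.11 SE, adjusted p = 0.011), a call lost without control replicate 1 or control replicate 2 (highest adjusted p 0.053). PYCR1, the last enzyme of proline synthesis, stood at -0.67 ± 0.25 SE with 5-FU (adjusted p = 0.18) and at -0.98 (adjusted p = 0.00021) without the 2 arrays.

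CTH, which releases cysteine in transsulfuration, read 7.20, 7.13 and 6.94 in control, 7.30, 7.63 and 7.54 in TQ arrays, 6.49, 6.61 and 4.70 in 5-FU arrays, and 8.0, 7.72 and 7.73 in TQ+5-FU arrays. The groups did not overlap in the order 5-FU, control, TQ, TQ+5-FU. With 5-FU its log2 fold change was -1.16 ± 0.41 SE (adjusted p = 0.14), and with TQ+5-FU 0.73 ± 0.41 SE (adjusted p = 0.64). Without the 2 arrays these were -0.54 (adjusted p = 0.0084) and 0.78 (adjusted p = 0.0016).

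**Figure D4:**
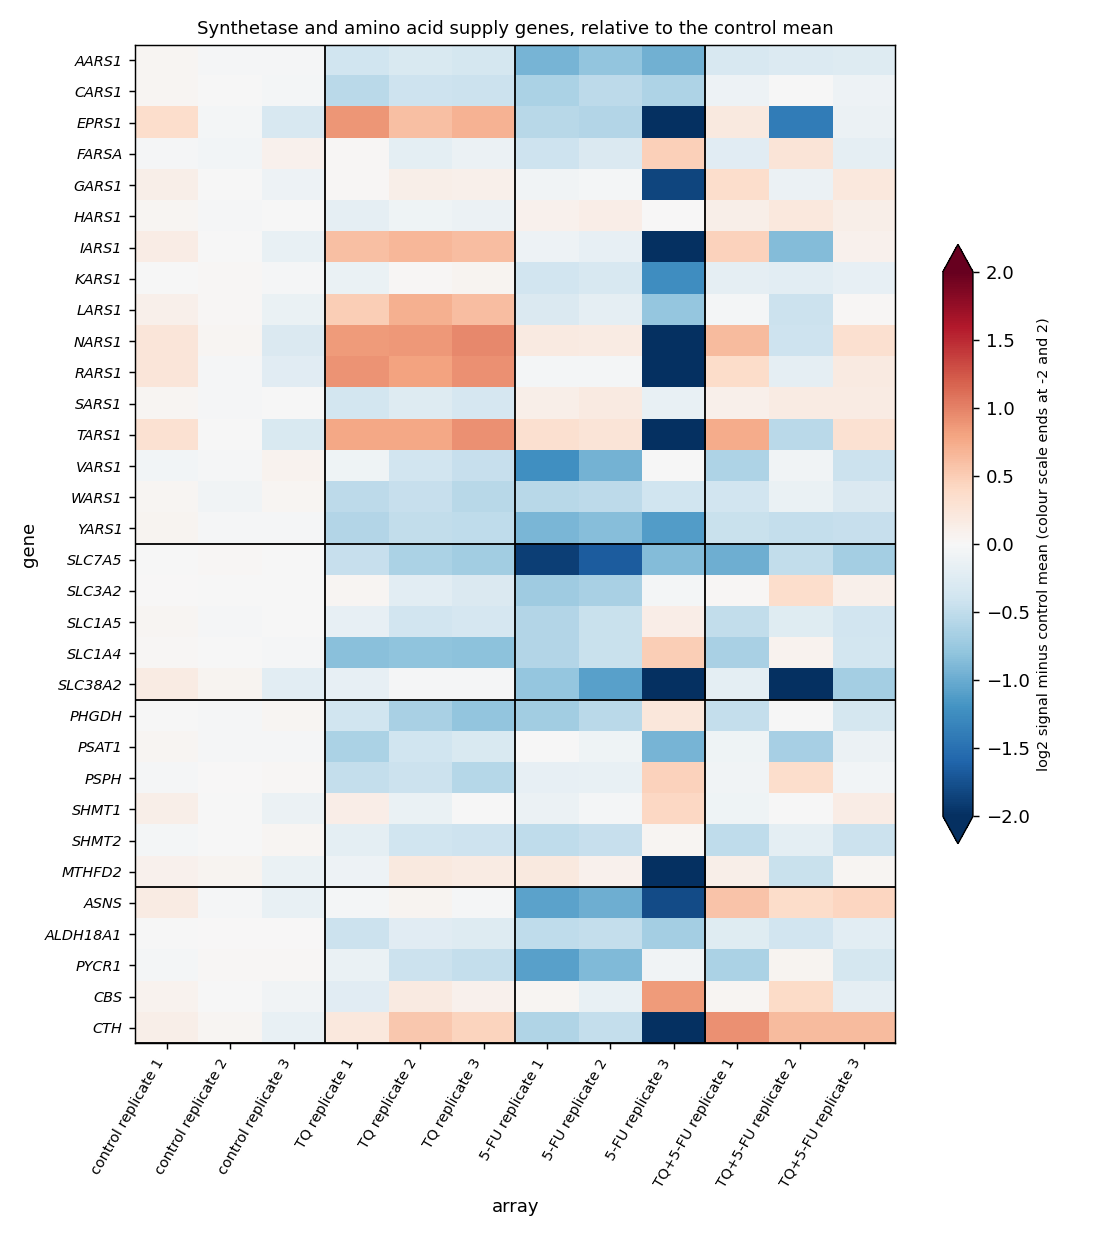
Log2 signal minus the control mean (colour, ending at -2 and 2) of the 32 genes (vertical axis, lines between the 4 roles) in the 12 arrays (horizontal axis, lines between groups). The 5-FU arrays are blue for AARS1, YARS1, SLC7A5 and ASNS, and 5-FU replicate 3 alone is deep blue for TARS1, NARS1, RARS1 and MTHFD2.

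The effect of adding TQ to 5-FU was read from TQ+5-FU against 5-FU alone. Here 3 of the 32 genes were higher and none lower, where 0.435% of all genes were higher and 0.368% lower, and the median was 0.41 beside -0.06 over all genes, or 0.25 beside -0.02 without the 2 arrays. ASNS was 3.31-fold higher (1.73 ± 0.19 SE, adjusted p = 0.0036), AARS1 1.54-fold (0.62 ± 0.09 SE, adjusted p = 0.015) and CARS1 1.43-fold (0.52 ± 0.09 SE, adjusted p = 0.034). The direction was upward for all 16 synthetases, between 0.04 and 0.97, though only AARS1 and CARS1 passed. Over all genes, 4953 of 11963 were above 0. HARS1 (-0.01) and SARS1 (-0.02) were no longer above 0 without the 2 arrays, IARS1 moved from 0.97 to 0.41, RARS1 from 0.97 to 0.32 and TARS1 from 0.94 to 0.23, and the 16 ran up to 0.61. ASNS passed whichever array was left out. It did not pass in limma on the compared groups alone or in the methods' t-test after adjustment (highest adjusted p 0.46), and each of these called none of all measured genes in this comparison. AARS1 was lost without 5-FU replicate 1 or without any 1 of the TQ+5-FU arrays, and CARS1 without any array but 5-FU replicate 3 (highest adjusted p 0.14). The other CARS1 probe set did not pass (0.53, adjusted p = 0.081), and that of CTH did (1.17, adjusted p = 0.025) where its brightest did not (1.89, adjusted p = 0.075). Without the 2 arrays 8 genes were higher and none lower, beside 3.67% and 3.24% over all genes: ASNS, CTH, SLC7A5 (0.95), SLC3A2 (0.73), VARS1, AARS1, CARS1 and YARS1. With all arrays VARS1 stood at 0.35 on its brightest probe set and at -0.14 on its other, neither past the test.

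Whether the drugs added up on the log2 scale was read from the interaction, TQ+5-FU minus TQ minus 5-FU plus control. Only 15 genes of the array passed upward and 5 downward, 0.125% and 0.0418%, and 3 of the 15 were the synthetases YARS1 (1.03 ± 0.14 SE), AARS1 (0.98 ± 0.13 SE) and CARS1 (0.97 ± 0.13 SE), each with an adjusted p of 0.032. TQ and 5-FU each lay below control for these synthetases, and TQ+5-FU lay above the sum of both differences. All 3 calls were kept without 5-FU replicate 3 and lost without any other single array, with adjusted p between 0.0041 and 0.16. ASNS had a larger interaction (1.73 ± 0.27 SE) and an adjusted p of 0.0505. The median interaction was 0.51 over the 32 genes and 0.00 over all genes. Of the 32 values 28 were above 0, beside 6079 of 11963 over all genes. Without the 2 arrays the median was 0.38 beside 0.04, and 24 values were above 0, beside 6793 of 11963 over all genes. NARS1 (-0.59), TARS1 (-0.59) and RARS1 (-0.56) were then lowest, none of them past the test. There 14 genes passed upward and none downward, beside 5.88% and 5.21% over all genes.

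Against TQ alone, 5-FU gave 7 lower genes of the 32 and none higher, beside 3.29% lower and 7.78% higher over all genes. They were EPRS1 (-1.91 ± 0.51 SE), CTH (-1.56 ± 0.41 SE), ASNS (-1.28 ± 0.19 SE), LARS1 (-1.02 ± 0.17 SE), SLC7A5 (-0.88 ± 0.23 SE), AARS1 (-0.55 ± 0.09 SE) and YARS1 (-0.43 ± 0.10 SE). EPRS1 read 9.47, 9.09 and 8.81 in control, 10.01, 9.73 and 9.82 in TQ arrays, 8.57, 8.53 and 6.73 in 5-FU arrays, and 9.32, 7.73 and 9.0 in TQ+5-FU arrays. Its TQ arrays lay above and its 5-FU arrays below control, and both of its other probe sets passed too. LARS1, the leucyl-tRNA synthetase, read 7.66, 7.58 and 7.43 in control, 8.05, 8.26 and 8.18 in TQ arrays, 7.26, 7.38 and 6.78 in 5-FU arrays, and 7.52, 7.13 and 7.58 in TQ+5-FU arrays, with the same order of TQ, control and 5-FU. ASNS, AARS1 and LARS1 passed whichever array was left out. SLC7A5 kept its call in 3 of 12 such fits, CTH in 4, EPRS1 in 5 and YARS1 in 9, with adjusted p up to 0.13. CTH moved from -1.56 to -0.94 (adjusted p = 0.0003) without the 2 arrays. Limma on the compared groups alone and the methods' t-test after adjustment called none of the 32, beside 1.03% and 0.518% of all genes. In the fit without the 2 arrays 5 genes were higher and 16 lower, beside 16.8% and 14.1% over all genes.

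TQ+5-FU against TQ called none of the 32 genes by limma, beside 1.05% of all genes higher and 0.1% lower. At an unadjusted p under 0.05 there were 6 higher and 2 lower, beside 9.38% and 3.35% over all genes. The methods' ANOVA with Tukey's HSD called 5, beside 4.66% of all genes, and the methods' t-test called none after Benjamini-Hochberg adjustment, beside 0.234% of all genes. Leaving out the 2 arrays, 4 genes were higher and 3 lower, beside 8.55% and 4.2% over all genes. SARS1 (0.45), PSPH (0.44), ASNS (0.49) and CARS1 (0.35) were higher, and EPRS1 (-0.69), LARS1 (-0.62) and RARS1 (-0.60) lower.

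TQ alone called none of the 32 genes by limma over 12 arrays, and other fits gave other counts. At an unadjusted p under 0.05, 1 gene was higher and 10 lower, beside 3.37% and 6.3% over all genes. The methods' ANOVA with Tukey's HSD called 7, beside 3.06% of all genes, and their t-test 13 after adjustment, beside 17.5%. Limma on the control and TQ arrays only called 21, 7 higher and 14 lower, and so did limma without the 2 arrays that stood apart, with 15% of all genes higher and 16% lower in the former and 15.1% and 17.3% in the latter. The count lower, 14 of 32, was above that background, and the count higher, 7 of 32, was nearer to it. Neither array that stood apart is a control or TQ array, so leaving them out did not change the fold changes with TQ. What changed was the spread estimated in the fit, and the p-values with it. NARS1, for example, stood at 0.89 in both fits, with an adjusted p of 0.7 on all 12 arrays and 0.00088 without the 2.

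In that fit without the 2 arrays the synthetases split with TQ. NARS1 (0.89), RARS1 (0.87), TARS1 (0.82), EPRS1 (0.73), IARS1 (0.63) and LARS1 (0.61) were higher, with adjusted p from 0.00057 to 0.005. YARS1 (-0.53), WARS1 (-0.51), CARS1 (-0.46), AARS1 (-0.35) and SARS1 (-0.33) were lower, with adjusted p from 0.00059 to 0.0048. NARS1, for asparagine, read 10.67, 10.47 and 10.13 in control and 11.27, 11.29 and 11.39 with TQ, and RARS1, for arginine, 9.41, 9.15 and 8.94 against 10.07, 9.97 and 10.08. None of the 6 higher synthetases overlapped between control and TQ, but they were picked by the test on these same arrays, so this adds no support. EPRS1, IARS1, LARS1 and RARS1 belong to the multi-synthetase complex of the cytosol, and so does KARS1, which read 12.95, 12.98 and 12.94 in control and 12.83, 12.98 and 13.01 with TQ.

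The 6 synthetases that were higher with TQ all lay below their replicates in 5-FU replicate 3, by -0.53 for LARS1 to -3.19 for TARS1, and below them in TQ+5-FU replicate 2, by -0.42 to -1.44. The 5 that were lower with TQ differed from their replicates in 5-FU replicate 3 by only -0.29 to 0.14. The high group also varied more in control (SD over the 3 arrays 0.12 for LARS1 to 0.33 for EPRS1) than the low group (SD 0.03 to 0.05). The part of whatever sets these arrays apart in the split was not tested.

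Of the supply genes, 9 were lower with TQ in that fit and CTH (0.40, adjusted p = 0.02) was higher. SLC1A4 was lowest at -0.82 (adjusted p = 0.00027), with 9.34, 9.31 and 9.29 in control and 8.48, 8.51 and 8.49 with TQ. PHGDH (-0.61), SLC7A5 (-0.59), PSPH (-0.49), PSAT1 (-0.45), PYCR1 (-0.35), SHMT2 (-0.33), ALDH18A1 (-0.31) and SLC1A5 (-0.30) followed. All 3 enzymes of the serine pathway were thus lower with TQ in this fit. Between the drugs, 5-FU minus TQ was 0.40 for PSAT1 (adjusted p = 0.012), 0.33 for PSPH (adjusted p = 0.0073) and -0.01 for PHGDH (adjusted p = 0.98). With TQ+5-FU against control the same fit gave 5 higher and 10 lower genes, beside 12.7% and 10% over all genes. The count of lower genes was above that background, and the count of higher genes was nearer to it. CTH (0.78), TARS1 (0.52), ASNS (0.49), NARS1 (0.48) and GARS1 (0.28) were higher. The lower genes were SLC7A5 (-0.82), VARS1 (-0.53), SLC1A4 (-0.51), PYCR1 (-0.49), SHMT2 (-0.47), YARS1 (-0.45), SLC1A5 (-0.44), PHGDH (-0.41), WARS1 (-0.34) and AARS1 (-0.29).

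ATF4 itself, read from its own probe set, moved in the same direction as the synthetases that fell. It read 13.21, 13.15 and 13.19 in control, 12.67, 12.53 and 12.53 in TQ arrays, 12.02, 12 and 12.18 in 5-FU arrays, and 12.68, 12.80 and 12.66 in TQ+5-FU arrays, and fell in all 3 treatments (-0.61, -1.12 and -0.47, adjusted p = 0.043, 0.00016 and 0.034). It was higher with TQ+5-FU than with 5-FU (0.64, adjusted p = 0.018), with an interaction of 1.25 (adjusted p = 0.031). ATF3, a stress-induced factor of the same family that is itself an ATF4 target, rose in all 3 (0.80, 2.92 and 2.57). The arrays measure mRNA, and ATF4 is controlled largely at translation, which they do not show.

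Of 12 other measured targets of ATF4, 5 fell with 5-FU and none rose, beside 2.97% and 4.32% of all genes: SLC7A11 (-2.68), which brings cystine into the cell, CHAC1 (-1.62), which degrades glutathione, CEBPG (-0.69), a partner of ATF4 on the composite element, HERPUD1 (-0.68) and VEGFA (-0.65). CEBPG was higher with TQ+5-FU than with 5-FU (0.66, adjusted p = 0.025), and CHAC1 and CEBPG passed the interaction (2.88 and 1.21, adjusted p = 0.032 for both). CHAC1 read 8.55, 8.56 and 8.41 in control, 7.16, 6.74 and 6.69 in TQ arrays, 6.66, 6.42 and 7.59 in 5-FU arrays, and 7.87, 8.49 and 8.01 in TQ+5-FU arrays, so that every TQ and 5-FU array lay below control, and of the TQ+5-FU arrays replicate 2 lay within it. With TQ+5-FU its log2 fold change against control was -0.38 (adjusted p = 0.88), and -0.57 (adjusted p = 0.014) without the 2 arrays. DDIT4, an inhibitor of mTORC1, fell with TQ (-1.73, adjusted p = 0.027). It did not pass with 5-FU (-0.79, adjusted p = 0.092) or with TQ+5-FU (-0.66, adjusted p = 0.28). Without the 2 arrays DDIT4 was lower with both (-1.10 and -0.79, adjusted p = 0.00016 and 0.0021). DDIT3 and TRIB3, both induced in prolonged stress, did not pass with 5-FU (0.23 and -0.25) or with TQ+5-FU (1.31, adjusted p = 0.095, and 0.49, adjusted p = 0.48). DDIT3 was higher in the fit without the 2 arrays with 5-FU (0.76, adjusted p = 0.00044) and with TQ+5-FU (1.35, adjusted p = 2.7e-05), and TRIB3 was lower with 5-FU (-0.53, adjusted p = 0.011).

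**Figure D5:**
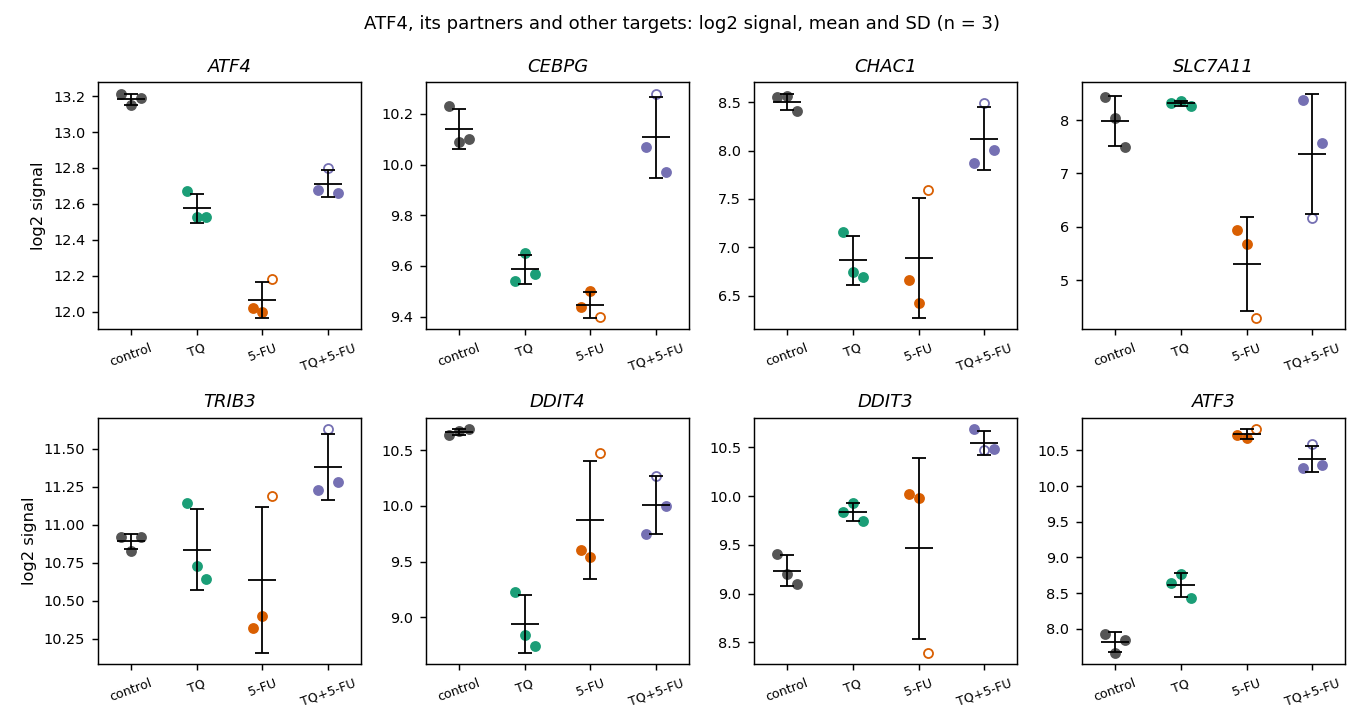
Log2 signal (vertical axis, a scale of its own in each panel) of ATF4, its partner CEBPG and 6 related genes in the 3 arrays of each group (horizontal axis), with mean and SD as black bars. Open circles are 5-FU replicate 3 and TQ+5-FU replicate 2. ATF4 lies below control in every treated array and ATF3 above it, and SLC7A11 is lowest in the 5-FU arrays.

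The counts in the remaining lists of the pathway stand beside the same 2.97% of all genes that fell with 5-FU and 4.32% that rose, and differences between lists were not tested. Of 10 measured mitochondrial synthetases 2 fell, NARS2 (-1.37, or -0.89 without the 2 arrays) and LARS2 (-0.73), and LARS2 was higher with TQ+5-FU than with 5-FU (0.53, adjusted p = 0.048). Of 19 other amino acid transporters 4 fell, SLC7A11, SLC43A1 (-1.10), SLC7A1 (-0.76) and SLC7A2 (-0.54), and SLC36A1, a lysosomal exporter, rose (0.48). SLC7A1 and SLC7A2 carry arginine and lysine, and SLC7A2 stayed under a log2 signal of 5 on every array, so its difference is not read further. Of 22 other amino acid and one-carbon enzymes GCSH fell (-0.46) and ARG2, the mitochondrial arginase, rose (1.21), and with TQ+5-FU GOT1 (0.69) and GCLM (0.65) rose, beside 1.78% of all genes. Of 18 genes of mTORC1 and amino acid sensing MTOR (-0.54) and DEPDC5 (-0.39) fell and SESN1, a p53 target, rose (2.02). Of 12 genes of tRNA export and elongation EIF2B5 fell (-0.75). Of 12 genes for eIF2α kinases, ATF4 and its partners, ATF4 and CEBPG fell and ATF3 rose. EIF2AK3, a kinase of eIF2α, did not pass with TQ (1.11), 5-FU (0.28) or TQ+5-FU (0.62). Without the 2 arrays it was higher in all 3 (1.11, 1.09 and 1.09), while EIF2AK1 and EIF2AK2 did not pass in either fit. EIF2AK4, the gene of the kinase GCN2 named above, was listed but not measured. AIMP1, the only measured gene listed for the multi-synthetase complex, did not pass with 5-FU (-0.75, or 0.24 without the 2 arrays).

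The composite element printed above occurred both among genes that fell and among genes that did not pass. Of the 7 genes that fell with 5-FU, 6 had a promoter window and 3 held the element (ASNS, AARS1 and CARS1), and of the other measured genes 20 had a window and 7 held it. SLC7A5, WARS1 and ALDH18A1 fell without the element in these windows, and GARS1, IARS1, NARS1, TARS1, SLC3A2, SLC1A5 and SLC1A4 held it and did not pass. A match or its absence in a window says nothing of whether a factor was bound in these cells. In all, 10 of the 32 genes passed in at least 1 of the 7 comparisons and 22 in none.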

How the data were processed

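RNA of 12 arrays (Affymetrix human GeneChip, RKO cells, 3 per group) was analysed from the table of log2 signals that the authors deposited after RMA background correction, normalization and summarization. The methods name GeneSpring for this step and the submitters' processing notes name Affymetrix Expression Console, and which was used is not settled here. RMA shares its normalization over all arrays, so an array that stands apart can shift the others. The values were used with no further scaling. Tests covered 22215 probe sets, after 62 control probe sets had been dropped. Of those tested, 19064 name 1 gene, 1043 several and 2108 none by the platform annotation. Each gene was read from its brightest single-gene probe set (11963 genes), with other probe sets given where they disagree. Arrays carry no read depth, and their number limits the precision.

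Groups were compared with limma 3.58.1 in R 4.3.3, 1 mean per group, all 12 arrays in a single fit, empirical Bayes moderation, two-sided, Benjamini-Hochberg over all tested probe sets, threshold 0.05. An exact two-sided test of 3 arrays against 3 cannot give a p under 0.1 and was not used for single genes. As alternatives, limma was fitted to the compared groups only, with the replicate number blocked, after quantile normalization or median centring, without the 30% dimmest probe sets, on the mean of a gene's probe sets, with array weights, with another variance prior, and without single arrays or without both arrays that stood apart (5-FU replicate 3, TQ+5-FU replicate 2), and the tests of the methods (ANOVA followed by Tukey's HSD, and a t-test) were run. The procedure was run on simulated data in which a probe set had the same spread on all 12 arrays. That run does not show how calls behave when arrays stand apart, as they do here. The genes, the further lists and the tests were chosen with earlier results of these data known. Values on every array are given for genes of the group past the threshold in any comparison and for ASNS, PSAT1, PHGDH, SLC7A5 and SLC3A2. The rest of the group are given by fold changes. From each further list, up to 4 genes past the threshold are given by fold changes, and so are 5 regulators. Array values are printed there only for ATF4 and CHAC1. Values of further genes given beside them were chosen after they were seen. Promoter windows come from RefSeq (GRCh38.p14). The plots were made in matplotlib 3.10.9 under Python 3.11.15.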

Additional observations from a re-analysis of the deposited data

Results flagged for a closer look

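For 3 synthetases the response to 5-FU differed with and without TQ by limma's interaction term, the test of that difference itself. The interaction was 1.03 for YARS1, 0.98 for AARS1 and 0.97 for CARS1 on the log2 scale, each with an adjusted p of 0.032. Over the alternatives tried, the adjusted p ran from 1.4e-05 to 0.16 for YARS1, from 2.6e-05 to 0.17 for AARS1 and from 2.6e-05 to 0.22 for CARS1, and each passed in 7 of 20 settings. The other CARS1 probe set passed as well (1.16, adjusted p = 0.037).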

How the results depend on the processing

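The 21 calls of single genes were recomputed 492 times over the alternatives: 348 kept their call and direction, 144 kept the direction and lost the call, and 0 reversed. The alternatives include the t-test without adjustment, where an unadjusted p under 0.05 counted as a call. They also include 12 fits without a single array, which share most of their data, so the recomputed calls are not independent. Counts of called genes moved more. The share of all genes called also moves between fits, as with 5-FU, where 2.97% fell with all arrays and 13.4% were lower without the 2 arrays. For most settings below, array weights and single arrays left out among them, no such share is given. Those counts therefore show how the calls depend on the fit and are not read as results about these genes. With 5-FU against control 7 genes were called, 3 by the methods' t-test after adjustment, 0 by limma on the compared groups only, 21 with array weights, 19 without 5-FU replicate 3 and TQ+5-FU replicate 2, and 5 to 15 when single arrays were left out. With TQ, where none was called, these were 13, 21, 23, 21 and 0 to 12, with 22 by the unadjusted t-test, 7 by ANOVA with Tukey's HSD and 1 after quantile normalization. With TQ+5-FU against control 1 was called, then 3 by the adjusted and 12 by the unadjusted t-test, 3 on the compared groups, 5 by ANOVA, 0 after centring, 19 with array weights, 15 without the 2 arrays and 0 to 7 without single arrays. For TQ+5-FU against 5-FU, 3 were called, then 0 and 6 by the adjusted and unadjusted t-test, 0 on the compared groups, 5 by ANOVA, 5 with the mean of probe sets, 1 after centring, 14 with array weights, 8 without the 2 arrays and 1 to 7 without single arrays. For TQ+5-FU against TQ none was called, then 9 by the unadjusted t-test, 5 by ANOVA, 1 after quantile normalization, 1 with another variance prior, 19 with array weights, 7 without the 2 arrays and 0 to 7 without single arrays. For 5-FU against TQ 7 were called, then 0 by the adjusted t-test, 0 on the compared groups, 22 with array weights, 21 without the 2 arrays and 3 to 13 without single arrays. For the interaction 3 were called, then 0 after centring, 22 with array weights, 14 without the 2 arrays and 0 to 12 without single arrays. The median log2 fold change over the 32 genes was -0.14 with TQ, -0.17 after centring and -0.20 to -0.11 without single arrays. It was -0.59 with 5-FU and -0.63 to -0.49 without single arrays. With TQ+5-FU it was -0.13, -0.09 without the 2 arrays and -0.20 to -0.08 without single arrays. Leaving out 5-FU replicate 3 gave the highest count in each of the ranges of counts. Array weights ran from 0.025 for 5-FU replicate 3 to 9.482 for TQ+5-FU replicate 3. The cause of these movements was not tested.

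With the replicate number as a block, the count was 7 for 5-FU and 0 for TQ, as without it, 0 for TQ+5-FU against control, 1 for TQ+5-FU against 5-FU, 0 for TQ+5-FU against TQ, 5 for 5-FU against TQ and 0 for the interaction. The numbers do not pair the arrays: same-numbered arrays of 2 groups correlated in their deviations between -0.836 and 0.859.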
